A study of Mus musculus with 6 samples.

Results

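In the mouse septal area, 1616 nuclei formed an astrocyte class chosen by the UMIs (unique molecular identifiers, each a counted transcript molecule) of 5 genes, Adamts18, Veph1, Gfap, Igfbp5 and Slc38a1. They came from 14494 nuclei that passed an astrocyte gate, out of 55537 barcodes in all. The gate asked for at least 500 genes, at most 5% mitochondrial UMIs, at least 4 UMIs of the glutamate transporters Slc1a2 and Slc1a3 together, at most 1 UMI of the GABA-synthesis genes Gad1 and Gad2 together, and at most 2 UMIs of the ciliary dynein gene Dnah12. Each gated nucleus was scored by its summed UMIs over 3 panels. Panel A was Grin2c, Gldc, Ranbp3l and Rorb, panel B was Lrig1, Slc6a11, Itih3 and Aldh1a1, and panel C was the 5 genes above. Members had panel C as their largest sum, at 3 UMIs or more, and ties were left out. By the same rule 7112 nuclei went to panel A and 2259 to panel B, while 527 were ties and 2980 had no sum of 3.

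All nuclei came from wild type mouse septal area, profiled as 6 droplet libraries (10x Chromium, 3′ version 3 chemistry) that form 1 group, so the series holds no treatment, genotype or time contrast. The labels used here give no age, sex or animal number, and nothing in them says that the libraries are separate animals, so the spread between libraries may be technical. Because the values of the panels themselves drew the classes, every comparison of members with panel A or panel B nuclei is a description and carries no test. Libraries held 7393 to 11134 barcodes and 70183544 to 95175260 UMIs, and gave 300, 270, 228, 304, 281 and 233 members from replicates 1 to 6.

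Members made up 11.2 ± 0.705% of the gated nuclei (SD, n = 6 libraries; 10.5% to 12.2%) and 2.99 ± 0.257% of all nuclei that passed the gene and mitochondrial limits. Their median depth in a library ran from 3174.5 to 4615.5 UMIs, against 3670 to 4782 for panel A nuclei. No member barcode was shared by a pair of libraries, and shared barcodes of any kind came to at most 0.433% of the smaller library. Member profiles correlated between libraries at a Pearson r of 0.953 to 0.969 (log2 counts per 1e+06 UMIs, across genes). The lowest value was between replicates 3 and 4, and no check for a library apart was made on this measure. Predicted doublets, barcodes whose profile resembles a sum of different nuclei, were 8.65 ± 2.40% of members, 7.27 ± 2.09% of panel A nuclei and 7.21 ± 1.48% of panel B nuclei.

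Astrocytes clear glutamate and potassium from the space around neurons, are coupled by gap junctions, and differ in their transcripts between brain regions and layers. Gfap encodes the intermediate filament protein that marks fibrous and reactive astrocytes, and in the healthy forebrain it is abundant in white matter, at the pial surface and along the ventricle and low in much of the grey matter. Slc38a1 encodes a sodium-coupled neutral amino acid transporter that carries glutamine, Adamts18 a secreted metalloprotease, Igfbp5 a secreted binding protein for insulin-like growth factors, and Veph1 a membrane-associated pleckstrin homology domain protein.

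The label was checked against marker lists of 10 cell types. The 12 astrocyte markers summed to 2112 to 2590 counts per 1e+06 UMIs (CPM) in members of the 6 libraries, against 4770 to 5192 CPM in panel A nuclei and 5716 to 6188 CPM in panel B nuclei, with no overlap. The 9 neuron markers went the other way, at 1639 to 2413 CPM in members against 614 to 944 CPM in panel A nuclei and 635 to 893 CPM in panel B nuclei. The 9 ependymal markers summed to 261 to 345 CPM in members against 71.5 to 96.1 CPM in panel A nuclei. Members as a whole thus carried less astrocyte marker RNA and more neuron and ependymal marker RNA than the other 2 classes.

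All gated nuclei were then clustered without the 18 genes of the rule, and 7 of the 26 clusters had an astrocyte marker sum at least 5 times that of every other list. Of the 1616 members, 1210 (74.9%; 70.7% to 79.3% by library) lay in these astrocyte-led clusters, against 83.5% to 85.2% of panel A nuclei and 83.3% to 89.3% of panel B nuclei. The cutoff was set after the clusters were seen. Cluster 5, with 481 members the second largest, passed it at a ratio of 5.72, while among the clusters outside it with more than 20 members the ratio was at most 1.51. The other 406 members, with a median of 9168.5 UMIs against 3361.5, lay in clusters led by other genes. Cluster 12 held 109 of them (Ebf2, Corin and Ebf3 led it, its neuron marker sum was 3919 CPM against 681 CPM for astrocyte markers, and 43.2% of its nuclei were predicted doublets), cluster 10 held 74 with a neuron sum of 5044 CPM, cluster 9 held 68 with oligodendrocyte genes such as Mbp and Mobp among its leading genes and 56.4% predicted doublets, and cluster 15 held 47 with the division genes Top2a and Mki67. The cutoff was applied to whole clusters. In the members of cluster 5 alone the astrocyte sum was 2768 CPM, the neuron sum 610 CPM and the ependymal sum 599 CPM, so those members by themselves fell short of 5 times. Values are given below for all members and for members within astrocyte-led clusters. Levels are summed UMIs, so the 406 deeper members outside these clusters weigh more in values for all members than their number does. Pooled, those 406 had an astrocyte sum of 706 CPM and a neuron sum of 3351 CPM.

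**Figure D1:**
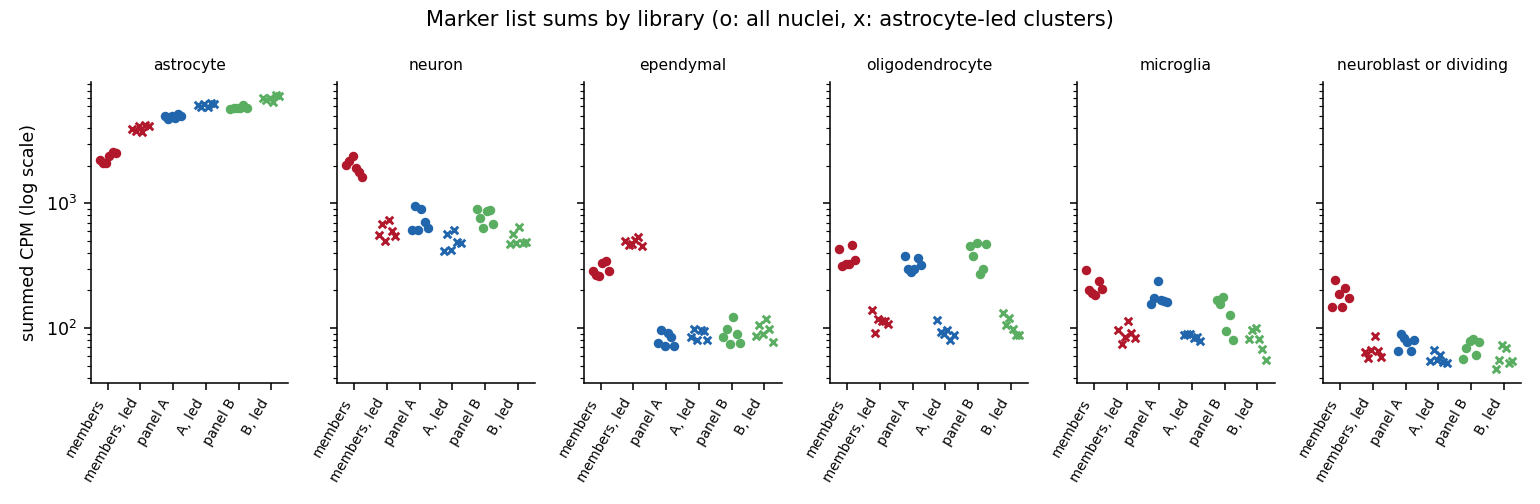
Summed CPM of each cell type marker list in members and in panel A and panel B nuclei, one point per library, for all nuclei and for nuclei in astrocyte-led clusters. Neuron markers stand at 1639 to 2413 CPM in all members and at 498 to 736 CPM in members of astrocyte-led clusters.

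Within astrocyte-led clusters the neuron sum of members came to 498 to 736 CPM, which overlapped the 411 to 610 CPM of panel A nuclei. The astrocyte sum was 3707 to 4256 CPM against 5945 to 6441 CPM. The clusters were chosen by these same lists, so low sums of other cell types there are in part set by the choice. The ependymal sum went further from the other classes there, at 454 to 540 CPM against 79.6 to 97.8 CPM in panel A nuclei. Microglia markers overlapped at 74.5 to 114 CPM against 78.0 to 89.9 CPM, and oligodendrocyte markers at 91.7 to 139.9 CPM against 80.3 to 117 CPM. Markers of oligodendrocyte precursors were higher in these members, at 160.3 to 253 CPM against 91.8 to 124 CPM, and Vcan, a matrix proteoglycan on that list, was its member that stood apart.

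The 5 panel genes set the class, so their levels describe it and support nothing else. Adamts18 stood at 235, 225, 264, 318, 245 and 353 CPM in members of replicates 1 to 6, against 10.1 to 13.4 CPM in panel A nuclei. Slc38a1 stood at 997, 1038, 916, 1180, 1249 and 1086 CPM, against 259.5 to 279 CPM. For both genes, all 6 values in members lay above all 6 of panel A nuclei and all 6 of panel B nuclei.

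Gfap was the panel gene with the smallest contrast. Its members' levels were 65.8, 66.9, 76.4, 81.5, 93.1 and 96.6 CPM, against 25.2 to 35.5 CPM in panel A nuclei and 13.998 to 33.5 CPM in panel B nuclei. Igfbp5 stood at 92.6, 56.3, 58.4, 94.8, 77.5 and 95.1 CPM against 11.1 to 15.98 CPM in panel A nuclei, and Veph1 at 56.9, 45.0, 34.7, 71.1, 55.1 and 77.7 CPM against 2.69 to 6.96 CPM. None of these ranges overlapped either.

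**Figure D2:**
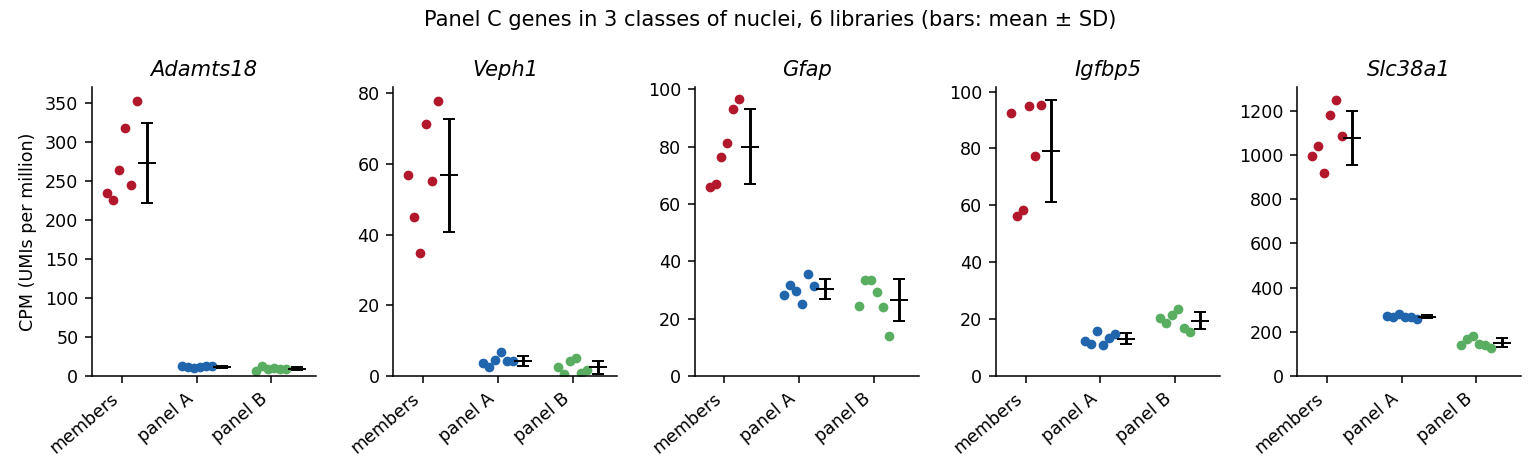
CPM of the 5 panel genes in members, panel A nuclei and panel B nuclei of each of the 6 libraries (linear axis, 1 point per library, bars: mean ± SD). Members lie above both other classes in every library for all 5 genes. The rule chose members by the summed UMIs of these genes within each nucleus.

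The panel was mostly Slc38a1. Of the members' panel UMIs, 68.9% were Slc38a1, 17.4% Adamts18, 5.09% Gfap, 5.07% Igfbp5 and 3.604% Veph1, and 460 members (28.5%) held UMIs of Slc38a1 alone. UMIs of 1, 2, 3, 4 and 5 panel genes were found in 500, 670, 364, 75 and 7 members. Without Slc38a1, 595 members would still reach a sum of 3, and reapplying the whole rule without it left 2.81% of gated nuclei in the class.

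A Gfap UMI was seen in 25.1% of members, an Adamts18 UMI in 38.4%, an Igfbp5 UMI in 25.99%, a Veph1 UMI in 16.5% and a Slc38a1 UMI in 96.2%. After every nucleus was thinned to 3000 UMIs, which left out shallower nuclei and kept 903 members, these shares were 22.3%, 36.9%, 22.7%, 17.5% and 96.6%. Panel A nuclei treated the same way gave 9.05%, 2.68%, 3.19%, 0.919% and 48.5%. Most members therefore showed no Gfap UMI at this depth, and Slc38a1 UMIs were common in panel A nuclei too. The panel genes were not limited to the class either: it held 42.2% of the series' Veph1 UMIs, 23.1% of its Gfap, 20.4% of its Adamts18, 17.9% of its Igfbp5 and 13.5% of its Slc38a1 UMIs. Gfap averaged 1.96 ± 0.440 CPM in nuclei outside the astrocyte gate, whereas Adamts18 averaged 21.1 ± 1.35 CPM there, more than in panel A nuclei.

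Each panel gene was also read in nuclei chosen by the other 4 genes. Adamts18 then stood 2.67 ± 0.28 above panel A nuclei (difference of log2(CPM + 1), mean ± SD over 6 libraries), Veph1 2.98 ± 0.34, Igfbp5 1.87 ± 0.36 and Gfap 0.71 ± 0.34. Slc38a1 stood 0.999 ± 0.33 above panel A nuclei in the 400 members chosen without it. So Gfap kept the smallest difference when it had no part in the choice.

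At the threshold, the 183 members with a sum of 3 had a median of 3168 UMIs and 56.3% of them lay in astrocyte-led clusters. The 200 nuclei just outside, led by panel C at a sum of 2, had a median of 6056.5 UMIs and 30.5% in those clusters. Panel C led by 1 UMI in 211 members, and 243 further nuclei with a panel C sum of at least 3 were left out as ties, of which 83.1% lay in astrocyte-led clusters.

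Most of the members' astrocyte-led nuclei fell into 3 clusters. Cluster 4 held 492 members (30.4%), cluster 5 held 481 (29.8%) and cluster 7 held 143 (8.85%). By library these shares ran from 25.99% to 34.9%, from 23.8% to 37.5% and from 6.14% to 10%. Members were 38.7% of the nuclei in cluster 4, 48.8% in cluster 5 and 18.1% in cluster 7, so panel A and panel B nuclei shared each of these clusters.

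**Figure D3:**
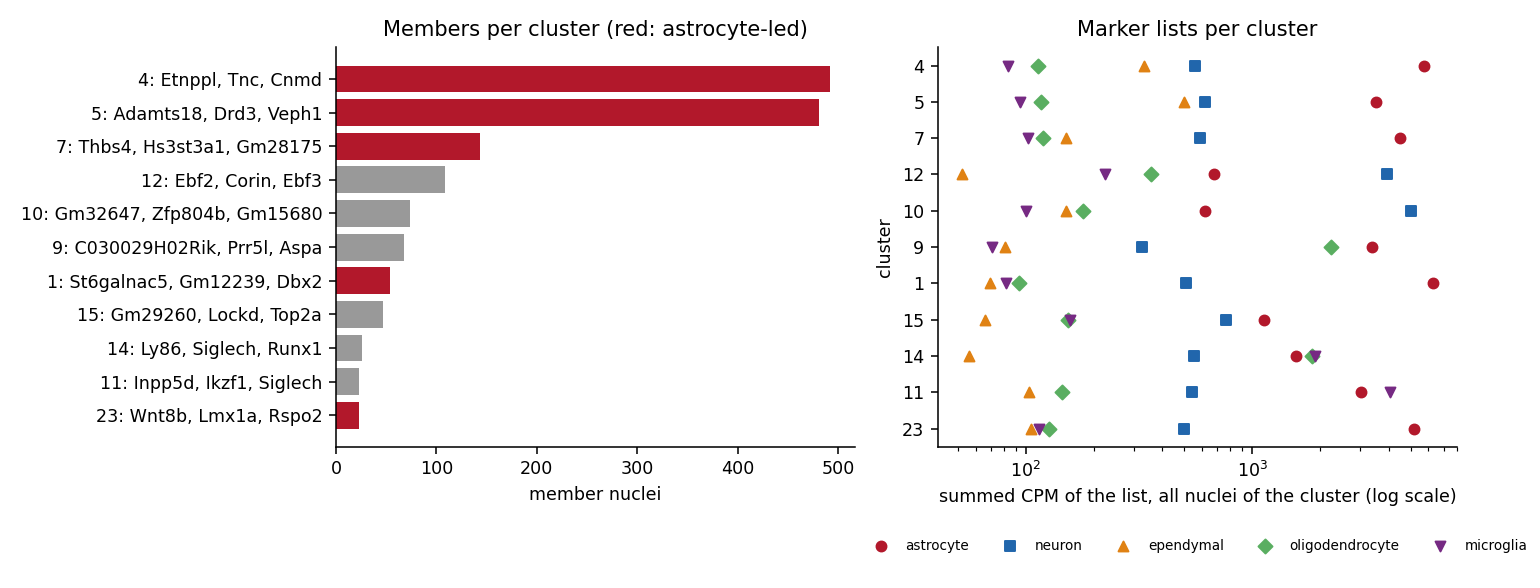
Number of members in the clusters that held most of them, beside the summed CPM of cell type marker lists in each of these clusters. Clusters were made without the rule genes. Clusters 4 and 5 hold 492 and 481 members. Panel A and panel B nuclei also lie in both clusters and are not drawn.

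Slc38a1 levels overlapped in members of the 3 clusters, at 1794 ± 131, 1786 ± 215 and 1849 ± 356 CPM in clusters 4, 5 and 7 (mean ± SD, n = 6 libraries). Those of Adamts18 and Gfap were more uneven. Adamts18 was 709.5 ± 76.1 CPM in members of cluster 5, 136 ± 17.9 CPM in cluster 4 and 104 ± 64.4 CPM in cluster 7. Gfap was 205 ± 37.7 CPM in cluster 4, 174 ± 56.0 CPM in cluster 7 and 73.9 ± 33.9 CPM in cluster 5, and the ranges of clusters 4 and 5 did not overlap (142 to 253 against 36.9 to 129 CPM). Veph1 followed Adamts18, at 176 ± 28.9 CPM in cluster 5 and 54.0 ± 19.4 CPM in cluster 4.

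In single nuclei, 89 members held UMIs of both Adamts18 and Gfap and 164 of both Adamts18 and Veph1. Of the 316 members with Gfap and no Adamts18, 50.6% lay in cluster 4, while of the 164 with Adamts18 and Veph1, 60.98% lay in cluster 5. Of the 61 members with no Slc38a1 UMI, 31.1% lay in the neuron-marked cluster 12. Clusters were built from these same nuclei, so the differences between them are descriptions.

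Members of cluster 5 carried Drd3, the dopamine D3 receptor gene, at 212 ± 44.0 CPM, against 2.999 ± 2.90 CPM in cluster 4 and 12.2 ± 14.8 CPM in cluster 7. Ntn1, the guidance ligand netrin 1, was likewise highest there, at 126 ± 24.8 CPM against 16.1 ± 10.2 and 2.90 ± 7.10 CPM. Members of cluster 4 carried Etnppl, an enzyme of phosphoethanolamine breakdown, at 238 ± 46.9 CPM against 54.8 ± 11.2 CPM in cluster 5 and 20.4 ± 28.7 CPM in cluster 7. Tnc, the matrix glycoprotein tenascin C, was 142 ± 22.9 CPM in cluster 4, 52.1 ± 20.7 CPM in cluster 7 and 7.15 ± 5.07 CPM in cluster 5. Members of cluster 4 were thus the higher in Gfap, Tnc and Etnppl, and those of cluster 5 in Adamts18, Veph1, Drd3 and Ntn1.

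In members of cluster 7, Thbs4, which encodes a secreted thrombospondin, averaged 485 ± 157 CPM, against 3.97 ± 3.34 CPM in cluster 4 and 26.4 ± 11.4 CPM in cluster 5. Hgf, the hepatocyte growth factor gene, averaged 108 ± 38.3 CPM there, and Tshr, the thyrotropin receptor gene, 156 ± 65.8 CPM. Slc1a2 was also highest in cluster 7, at 6213 ± 377 CPM against 3928 ± 258 CPM in cluster 5 and 2726 ± 200.3 CPM in cluster 4. Slc1a3 was lowest there, at 2405 ± 433 CPM against 3713 ± 287 CPM in cluster 5 and 3492 ± 133 CPM in cluster 4. The gate acted on the sum of Slc1a2 and Slc1a3. The 23 members in cluster 23, led by Wnt8b, Lmx1a and Rspo2, had no Adamts18 or Veph1 UMI (a count of 0 allows a share of up to 13% of nuclei with a UMI, by counting error only), and 56.5% of them had a Gfap UMI.

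**Figure D4:**
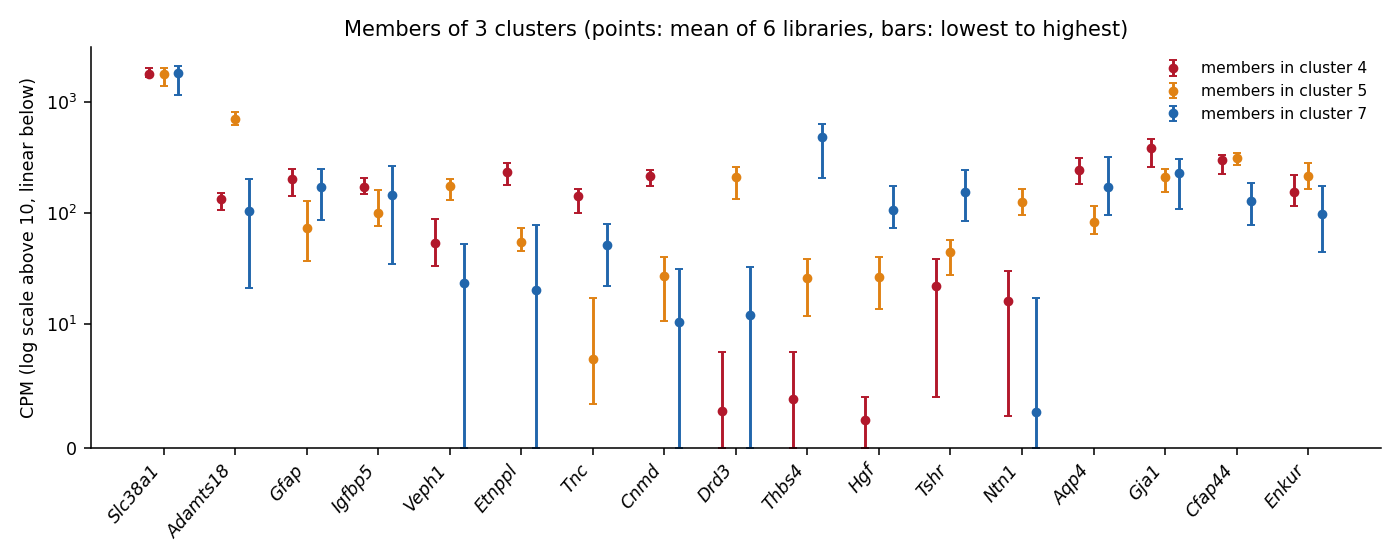
CPM of selected genes in members of clusters 4, 5 and 7 (points: mean of 6 libraries, bars: lowest to highest library). Adamts18 and Drd3 are highest in cluster 5, Gfap and Tnc are higher in cluster 4 than in cluster 5, and Thbs4 is highest in cluster 7.

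Across the genome, a gene was counted as standing apart when its difference in log2(CPM + 1) between members and another class, averaged over libraries, was at least 1 in size and had the same sign in 6 of 6 libraries. Genes at 5 CPM or more in either class entered, without the 18 rule genes. Against panel A nuclei, 743 of 12253 genes stood higher in members (6.06%) and 262 lower (2.14%). Against panel B nuclei, 934 of 12342 stood higher (7.57%) and 338 lower (2.74%). From both classes at once, 602 genes stood higher and 124 lower. Within astrocyte-led clusters, 607 of 11837 genes stood higher than in panel A nuclei (5.13%) and 224 lower (1.89%), and 742 of 11918 stood higher than in panel B nuclei (6.23%) and 292 lower (2.45%). There 460 stood higher than in both classes and 109 lower, of which 203 and 68 were also in the counts over all members.

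The excess of higher genes depended on scaling. The median difference over all genes against panel A nuclei was 0.12 on the log2 scale with UMI totals and -0.04 with TMM factors, which centre most genes. With TMM, 543 genes stood higher and 416 lower than in panel A nuclei (56.6% higher in place of 73.9%), and 718 higher and 434 lower than in panel B nuclei (62.3% in place of 73.4%). With median-ratio factors the counts were 574 and 375 (60.5%) against panel A nuclei and 731 and 426 (63.2%) against panel B nuclei. Within astrocyte-led clusters TMM gave 388 higher and 388 lower genes against panel A nuclei.

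The genes farthest above both classes over all members were largely those of cluster 12. Ebf2, a transcription factor gene of the COE family, stood at 246, 229, 407, 106, 172 and 98.8 CPM in members of replicates 1 to 6, against 5.80 to 44.8 CPM in panel A nuclei. Corin, which encodes a transmembrane serine protease, stood at 113, 191, 181, 48.1, 85.7 and 82.1 CPM against 5.47 to 10.6 CPM. Cluster 12 held 8.33%, 8.15%, 12.7%, 2.30%, 4.98% and 5.15% of the members of those libraries. Within astrocyte-led clusters Ebf2 averaged 4.35 CPM in members and 4.38 CPM in panel A nuclei, and Corin 1.56 and 2.16 CPM.

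Of the 12 genes named by the rule as farthest above both classes over all members, 10 (Corin, Ebf3, Adgrd1, Ebf2, Ccdc192, Postn, Sema3a, Samd3, Epha3 and Clstn2) did not stand apart within astrocyte-led clusters. Epha3, an ephrin receptor gene, was 451 ± 173 CPM in all members against 62.9 ± 11.2 CPM in panel A nuclei, and its difference was 2.76 ± 0.40 over all members and 0.84 ± 0.31 within astrocyte-led clusters. Of the 8 neuron markers tested against panel A nuclei, 7 stood higher in all members. Syt1 was among them, at 1276 ± 184 CPM against 449 ± 97.4 CPM. None of the 6 tested stood higher within astrocyte-led clusters, which this marker list had helped to choose. Of all genes, 6.06% stood higher over all members and 5.13% within astrocyte-led clusters.

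Drd3 and Enkur stood higher in both settings. Drd3 was 54.1, 33.8, 46.2, 67.4, 49.6 and 58.8 CPM in members against 2.61 to 7.92 CPM in panel A nuclei and 1.04 to 5.27 CPM in panel B nuclei, a difference in log2(CPM + 1) of 3.05 ± 0.69 and 3.90 ± 0.69. Enkur, whose product enkurin sits in motile cilia and sperm flagella, was 98.7, 88.8, 85.4, 92.6, 87.0 and 88.6 CPM against 9.11 to 13.8 CPM and 7.28 to 16.8 CPM. Both were larger within astrocyte-led clusters, with differences from panel A nuclei of 3.85 ± 0.63 for Drd3 and 3.55 ± 0.18 for Enkur.

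Cilium genes were among the other 10 farthest above both classes within astrocyte-led clusters. They were Ttc21a, an intraflagellar transport gene (30.7 ± 3.04 CPM in members, 1.61 to 3.06 CPM in panel A nuclei), and the dynein assembly genes Dnaaf3 (24.1 ± 7.69 against 1.32 to 3.61 CPM) and Daw1 (48.2 ± 8.82 against 4.28 to 6.09 CPM). The rule also named Armc3 (77.8 ± 15.6 against 5.56 to 9.12 CPM), Ccdc170 (166 ± 11.5 against 15.8 to 23.4 CPM) and Lrriq1 (206 ± 22.1 against 18.9 to 28.2 CPM). The other genes it named were Cdkl4, a kinase gene, Vwa5b1, the membrane-binding annexin gene Anxa2 (22.7 ± 5.30 against 0.536 to 3.61 CPM) and Eya2, a transcriptional cofactor and phosphatase gene (38.3 ± 10.6 against 2.07 to 4.28 CPM). None of these ranges overlapped.

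Genes of the motile cilium families were then counted by name (Cfap, Dnah, Rsph, Spag and Tekt, without Dnah12), a list made after the clusters were seen. The motile cilium is built on an axoneme whose dynein arms (Dnah), radial spokes (Rsph), tektins and cilia and flagella associated proteins (Cfap) these genes encode. Spag9, a kinase scaffold gene with the family name, is in the list though not a cilium gene. Of 51 tested, 27 stood higher in members than in panel A nuclei and 1, Dnah14, lower, and 25 stood higher than in panel B nuclei, beside 6.06% and 7.57% of all genes higher in these comparisons. Within astrocyte-led clusters 36 of 56 stood higher than in panel A nuclei and 34 of 56 than in panel B nuclei. The list's median difference from panel A nuclei was 1.19 over all members and 1.57 within astrocyte-led clusters, beside 0.12 and 0.16 over all genes tested. With TMM, 26 of the 27 and 30 of the 36 still stood higher. Of the tested genes, 12 of 51 and 17 of 56 reached 5 CPM only in members, where they are high, so these counts and medians are a description. Among the 39 genes at 5 CPM or more in panel A nuclei themselves, 17 stood higher over all members, beside 4.38% of all such genes, and 23 of 39 within astrocyte-led clusters, beside 3.54%.

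Cfap44 was 151 ± 23.4 CPM in all members (118 to 175) against 27.3 to 33.8 CPM in panel A nuclei and 26.03 to 43.8 CPM in panel B nuclei. Spag16 was 314 ± 38.7 CPM against 131 to 153 CPM and 73.4 to 121 CPM. Dnah2 was 64.4 ± 8.12 CPM against 11.3 to 16.6 CPM and 10.6 to 22.1 CPM. Members thus stood above both classes in all 6 libraries for each of these genes, at differences from panel A nuclei of 2.28 ± 0.23, 1.13 ± 0.22 and 2.19 ± 0.14. Cfap54, Cfap46 and Dnah11 gave 1.87 ± 0.22, 2.07 ± 0.34 and 1.95 ± 0.32.

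In the same libraries, 2033 nuclei outside the gate held at least 10 UMIs of Dnah12, as cells with motile cilia do. They carried Spag17, a central apparatus gene, at 989 ± 67.6 CPM and Tmem212, an ependymal marker, at 1022 ± 72.5 CPM. Members carried 5.49 ± 3.20 CPM of Spag17 against 5.20 ± 1.19 CPM in panel A nuclei, and 6.22 ± 2.91 CPM of Tmem212 against 6.19 ± 2.36 CPM. Foxj1, the master regulator of motile cilia, was 3.22 ± 2.59 CPM in members, 1.09 ± 0.261 CPM in panel A nuclei and 52.2 ± 11.03 CPM in Dnah12-rich nuclei. The rule's limit on Dnah12 acts on any gene that goes with it, so low levels of such genes are in part set by the choice.

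The cilium genes did not stand in members in the proportions of Dnah12-rich nuclei. The members' excess over panel A nuclei was 23.8% of the Dnah12-rich level for Enkur, 10.5% for Cfap44, 9.26% for Dnah2, 7.79% for Spag16, 3.03% for Dnah11, 0.477% for Cfap299, 0.0294% for Spag17 and -0.0989% for Dnah3. Over 60 cilium family genes at 5 CPM or more in Dnah12-rich nuclei the median excess was 3.61% (-28.9%, for Spag9, to 25.6%). Of the 6 ependymal markers at 5 CPM or more, Cfap43, Cfap44, Dnah6 and Dnah9 stood higher in members than in panel A nuclei. Spag17 and Tmem212 did not stand apart. In that comparison 6.06% of all genes stood higher.

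**Figure D5:**
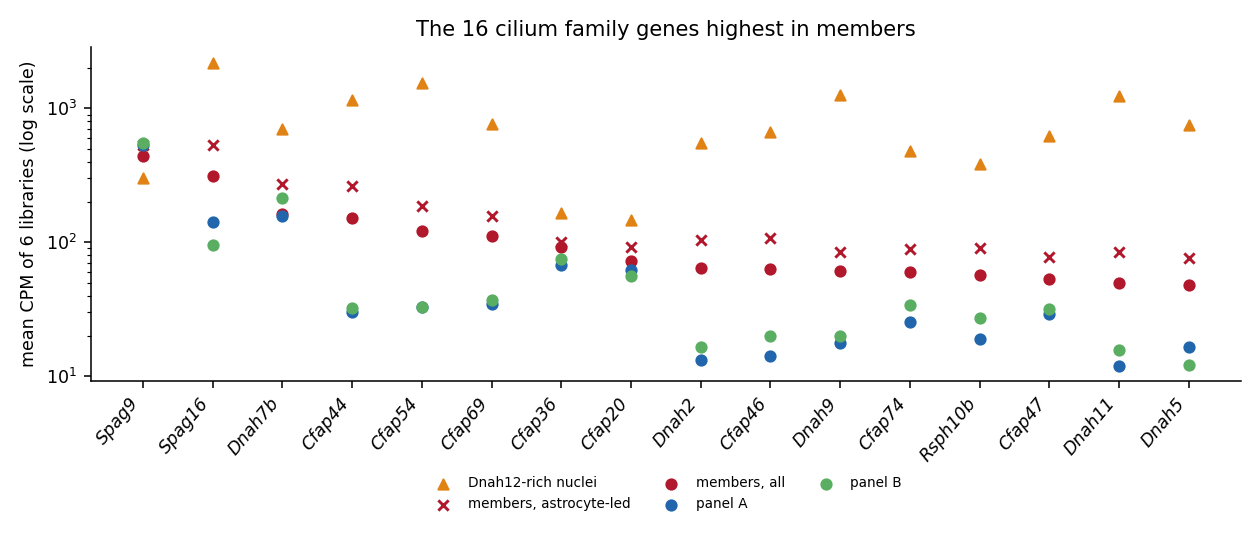
Mean CPM over 6 libraries (log axis) of the cilium family genes with the highest levels in members. Points are Dnah12-rich nuclei, all members, members in astrocyte-led clusters, panel A nuclei and panel B nuclei. Cfap44 averaged 1159 CPM in Dnah12-rich nuclei, 151 CPM in members and 30.1 CPM in panel A nuclei.

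Fewer genes stood lower in members than higher, and Gpc5 was the farthest below both classes. Gpc5, a cell surface heparan sulphate proteoglycan gene, was 1713, 1682, 1629, 2021, 1767 and 1934 CPM in members of replicates 1 to 6, against 10227 to 10784 CPM in panel A nuclei and 11604 to 13042 CPM in panel B nuclei. The difference was -2.54 ± 0.13 from panel A nuclei over all members and -2.31 ± 0.14 within astrocyte-led clusters. The other genes named by the rule as farthest below both classes over all members were Cd38, Abcd2, Dbx2, Vav3, Htra1, Nmur2, Bmp7, Fgfr3 and Nhsl1, and all 10 stood lower than both classes within astrocyte-led clusters too. Fgfr3, a fibroblast growth factor receptor gene typical of astrocytes, was 39.0, 49.0, 46.8, 48.9, 42.2 and 36.3 CPM against 124 to 141 CPM and 169.8 to 203 CPM. Abcd2, a peroxisomal fatty acid transporter gene, was 30.6 ± 4.08 CPM against 108 to 119 CPM, and Htra1, a secreted serine protease gene, 66.7 ± 11.1 CPM against 237 to 281 CPM.

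Within astrocyte-led clusters the genes farthest below both classes were Il33, Vav3, Gpc5, Fam163a, Ece1, Ccdc18, Abcd2, Elovl2, Shisa9 and Hhip. Il33, an alarmin cytokine gene that astrocytes and oligodendrocytes express, was 7.93 ± 1.496 CPM in members (6.19 to 10.03), against 46.3 to 62.5 CPM in panel A nuclei and 53.5 to 72.5 CPM in panel B nuclei. Over all members it was 27.3, 30.5, 31.4, 28.1, 52.4 and 23.2 CPM, and its difference from panel A nuclei was -0.94 ± 0.43, short of the size used here. Vav3, a guanine nucleotide exchange factor gene, was 31.3 ± 7.49 CPM against 143 to 165 CPM in panel A nuclei.

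Of the 12 astrocyte markers, 7 stood lower than in panel A nuclei over all members, Gjb6, Slc7a10, Aldh1l1 and Glul among them, and 2 within astrocyte-led clusters (Gjb6 and Slc7a10). Over all genes tested 2.14% and 1.89% stood lower. The count within astrocyte-led clusters was 5 with TMM, Glul and Acsbg1 among them. Gjb6, which encodes the gap junction protein connexin 30, was 18.7 ± 2.50 CPM in members against 49.7 to 67.7 CPM in panel A nuclei and 67.5 to 103 CPM in panel B nuclei, and 30.8 ± 4.24 CPM against 61.2 to 86.2 CPM within astrocyte-led clusters. Gja1, the other astrocytic connexin, did not stand apart. It was 171 ± 19.2 CPM in members and 188 ± 17.9 CPM in panel A nuclei, with overlapping ranges. Aqp4, the water channel gene of astrocyte endfeet, was 97.2 ± 18.4 CPM against 121 ± 7.21 CPM, also overlapping.

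Among 13 amino acid transport genes tested against panel A nuclei, 1 stood higher and 2 lower, beside 6.06% and 2.14% of all genes tested. Slc38a2, which encodes the close relative of the panel's own transporter, was 135 ± 28.2 CPM in members against 44.6 to 64.1 CPM in panel A nuclei and 25.3 to 50.6 CPM in panel B nuclei. Slc38a3, the glutamine exporter gene of perisynaptic astrocytes, was 33.5 ± 4.71 CPM against 91.5 to 109 CPM, and Slc7a10, a transporter gene for D-serine and glycine, 56.8 ± 9.83 CPM against 138 to 169 CPM. Within astrocyte-led clusters all 3 kept these directions against panel A nuclei, with differences of 1.96 ± 0.29, -1.10 ± 0.24 and -1.01 ± 0.11. None of 7 genes of glycine cleavage and serine synthesis stood apart in any comparison.

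Of 15 genes of potassium, water and ion balance tested against panel A nuclei, 1 stood higher and 4 lower over all members. Of all genes, 6.06% and 2.14% did. Within astrocyte-led clusters 1 stood higher and 2 lower, beside 5.13% and 1.89% of all genes. Slc24a4, a potassium-dependent sodium-calcium exchanger gene, was 42.9 ± 14.2 CPM in members and 16.4 ± 3.90 CPM in panel A nuclei. Kcnj16, an inward rectifier channel gene, was 8.72 ± 2.64 CPM against 25.3 ± 3.53 CPM. S100b, a calcium-binding protein gene used as an astrocyte marker, was 10.3 ± 3.58 CPM against 25.2 to 32.7 CPM and stood lower than both classes in both settings.

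Genes of the cytoskeleton under the membrane split. Of 10 tested against panel A nuclei, Plec and Ahnak stood higher and Dmd lower in both settings, and with TMM Plec did not stand apart over all members. Over all genes, 6.06% stood higher and 2.14% lower over all members, and 5.13% and 1.89% within astrocyte-led clusters. Plec, which encodes the linker plectin that binds intermediate filaments, was 28.1 ± 5.01 CPM in members against 9.80 to 14.2 CPM in panel A nuclei. Ahnak, a giant scaffold protein gene, was 24.5 ± 5.15 CPM against 5.55 to 8.75 CPM, and Dmd, the dystrophin gene, was 614 ± 82.4 CPM against 1259 to 1400.5 CPM. Vim, the intermediate filament partner of Gfap, was 5.40 ± 1.56 CPM against 2.65 ± 0.880 CPM, with overlapping ranges, and stood apart from panel B nuclei alone, within astrocyte-led clusters.

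Few genes from lists of reactive astrocytes reached the level tested. Of the 12 pan-reactive genes, 5 reached 5 CPM against panel A nuclei and none stood apart. Over all genes tested 6.06% stood higher and 2.14% lower, so a count of none among 5 genes says little. Lcn2 and Cxcl10 had no UMI in the 1616 members, which allows a share of up to 0.186% of nuclei with a UMI. Serping1, which encodes an inhibitor of complement C1, and Ggta1, a glycosyltransferase gene, stood higher among 3 tested genes of the neurotoxic-type list, of which Serping1 reached 5 CPM only in members. Ggta1 was 57.4 ± 12.5 CPM in members against 24.1 to 29.4 CPM in panel A nuclei, and Serping1 8.21 ± 1.55 CPM against 1.92 to 4.09 CPM. With TMM neither stood apart over all members, and both did within astrocyte-led clusters. Cd109, a membrane glycoprotein gene of the ischaemia-type list, reached 5 CPM only in members, so its inclusion rests on its level there. It was 9.19 ± 4.13 CPM against 0.673 to 1.75 CPM.

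The counts of matrix genes depended on the setting. Of 22 extracellular matrix genes tested against panel A nuclei over all members, Tnc stood higher and 2 lower, and within astrocyte-led clusters 6 of 20 stood higher (Tnc, Tnr, Vcan, Lama4, Col4a1 and Fbln2) and none lower. Over all genes tested, 6.06% stood higher and 2.14% lower over all members, and 5.13% and 1.89% within astrocyte-led clusters. Of the 20, 2 reached 5 CPM only in members. Among the other 18, 4 stood higher, beside 3.54% of all genes at 5 CPM or more in panel A nuclei. With TMM, 3 of the 6 (Tnc, Tnr and Fbln2) still stood higher and Hapln1 stood lower, and over all members Tnc did not stand apart. Of the 6 fibroblast markers, the summed level in astrocyte-led clusters was 45.4 to 66.9 CPM in members against 29.9 to 33.5 CPM in panel A nuclei, nearly all of it Col1a2, with Dcn, Lum and Col3a1 at 0 in members, and its part in the matrix counts was not tested. Tnc was 71.2 ± 13.5 CPM in members there against 15.1 to 27.6 CPM, but in a class chosen without Slc38a1 its difference from panel A nuclei was -0.55. Col4a1, a basement membrane collagen gene, was 47.3 ± 4.59 CPM there against 16.1 to 23.2 CPM. Tnr, the tenascin of perineuronal nets, was 173 ± 56.8 CPM there against 56.2 to 82.7 CPM, whereas over all nuclei it was 361 ± 80.2 CPM in members and 448 ± 49.8 CPM in panel A nuclei.

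Of the other 18 ADAMTS family genes, 14 were tested against panel A nuclei, and Adamts17 and Adamts19 stood higher over all members. Over all genes tested, 6.06% stood higher and 2.14% lower. Of the 14, 1 reached 5 CPM only in members. Among the other 13, 1 stood higher, beside 4.38% of all genes at 5 CPM or more in panel A nuclei. With TMM Adamts19 stood higher and Adamts12 lower. In the insulin-like growth factor system, Pappa stood higher and Igfbp2 lower than in panel A nuclei in both settings, of 9 and 7 genes tested. The shares of all genes were 6.06% and 2.14% over all members, and 5.13% and 1.89% within astrocyte-led clusters. Pappa, which encodes a protease that cleaves binding proteins of these growth factors, was 21.6 ± 5.17 CPM in members against 6.13 to 11.6 CPM. Igfbp2 was 1.47 ± 1.85 CPM against 5.72 ± 1.42 CPM, with overlapping ranges.

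Transcription factors that pattern the forebrain mark where in it a cell lineage arose. Of 20 tested against panel A nuclei, 1 stood higher and 3 lower, while of 19 tested against panel B nuclei 7 stood higher and 2 lower. The shares over all genes were 6.06% and 2.14% against panel A nuclei and 7.57% and 2.74% against panel B nuclei. Of the 19, 2 reached 5 CPM only in members. Among the other 17, 5 stood higher, beside 5.37% of all genes at 5 CPM or more in panel B nuclei. TMM put 6 lower than in panel A nuclei, Lhx2 and Nkx2-2 among them, and 5 higher than in panel B nuclei, without Zic1 and Zic2. Zic4 and Zic1, zinc finger genes of the medial forebrain, were 209.5 ± 20.98 and 142 ± 16.6 CPM in members, 226 ± 25.3 and 139 ± 22.1 CPM in panel A nuclei, and 88.8 ± 16.6 and 67.5 ± 5.87 CPM in panel B nuclei. Lhx2, a LIM homeobox gene of the cortical primordium, was 24.3 ± 6.74 CPM, between 45.8 ± 2.91 CPM in panel A nuclei and 8.30 ± 1.85 CPM in panel B nuclei. Emx2, a homeobox gene of the dorsal telencephalon, was 19.1 ± 3.81 CPM, also between 40.9 ± 3.77 and 9.79 ± 3.09 CPM. Meis1 and Nkx2-2 went the other way, with panel B nuclei highest at 169 ± 17.6 and 32.4 ± 5.23 CPM and members at 58.5 ± 6.97 and 9.37 ± 2.55 CPM. Of the 20 glial fate factors tested, Olig2 alone stood apart from panel A nuclei, at 4.96 ± 2.44 CPM against 11.3 ± 1.43 CPM, and with TMM Npas3 stood lower too.

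In Sonic hedgehog signalling, the receptor and pathway target Ptch1 was 242 ± 37.0 CPM in members against 352 ± 31.9 CPM in panel A nuclei and 763 ± 76.6 CPM in panel B nuclei. Cdon, a coreceptor gene, had the opposite order, at 63.3 ± 8.83, 29.2 ± 2.81 and 12.5 ± 2.603 CPM. Of 10 pathway genes tested against panel B nuclei, 1 stood higher and 3 lower (7.57% and 2.74% over all genes), and 1 and 4 with TMM. Against panel A nuclei Cdon stood higher with UMI totals and not with TMM.

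In Wnt signalling, 3 of 15 genes stood higher than in panel A nuclei (Sfrp1, Lgr6 and Rspo2) and 2 lower, beside 6.06% and 2.14% of all genes. Within astrocyte-led clusters 4 stood higher and 1 lower (5.13% and 1.89% of all genes), and with TMM 3 and 2. In each setting 2 of the 15 reached 5 CPM only in members, where they are high. Among the 13 at 5 CPM or more in panel A nuclei, 1 stood higher over all members, beside 4.38% of all such genes. Within astrocyte-led clusters 2 of 13 did, beside 3.54%. Sfrp1, a secreted Wnt antagonist gene, was 11.7 ± 5.44 CPM in members against 4.03 ± 1.05 CPM, and Lgr6, an R-spondin receptor gene, 19.96 ± 5.33 CPM against 4.48 to 6.92 CPM. Axin2, a Wnt target and feedback inhibitor, was 24.2 ± 6.15 CPM (17.0 to 32.1) against 11.6 to 14.4 CPM, with a difference of 0.81 ± 0.33 over all members and 1.08 ± 0.47 within astrocyte-led clusters. Rspo2 led cluster 23, which held 23 members, and stood at 6.79 ± 5.16 CPM in all members, and its difference from panel A nuclei was -0.16 in a class chosen without Slc38a1.

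Of 20 genes of BMP and TGF-beta signalling tested against panel A nuclei, Id3 and Tgfbr3 stood higher and Bmp7 and Chrdl1 lower, beside 6.06% and 2.14% of all genes. With TMM Bmp6 and Ltbp1 stood lower too. Id3, a BMP target gene, was 29.0 ± 9.40 CPM in members against 10.6 ± 2.18 CPM, and the ranges overlapped (11.8 to 38.4 against 8.12 to 14.03 CPM). Bmp7, a ligand gene, was 6.26 ± 2.95 CPM against 20.9 ± 3.88 CPM. Lpar1, a lysophosphatidic acid receptor gene on the list for quiescent neural stem cells, was 60.3 ± 10.6 CPM in members within astrocyte-led clusters against 7.23 to 12.8 CPM, and over all nuclei 48.5 ± 4.09 CPM against 24.3 ± 4.88 CPM.

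Of 27 guidance and Eph genes, 9 stood higher and none lower than in panel A nuclei over all members, where 6.06% of all genes stood higher. Within astrocyte-led clusters 5 did (Ephb2, Sema6a, Nrp2, Slit2 and Ntn1; 5.13% of all genes), or 3 with TMM, without Sema6a and Nrp2. Slit2, a repulsive guidance ligand gene, was 715 ± 93.3 CPM in members against 222 to 287 CPM in panel A nuclei and 343 to 406 CPM in panel B nuclei, and 876 ± 114 CPM against 246 to 324 CPM within astrocyte-led clusters. Nrp2, a semaphorin receptor gene, was 222 ± 94.2 CPM in all members against 45.2 ± 7.62 CPM in panel A nuclei, and 58.4 ± 17.4 CPM against 19.8 to 34.2 CPM within astrocyte-led clusters. Ntn1 was 55.0 ± 11.9 CPM against 9.80 to 19.8 CPM within those clusters and overlapped panel A nuclei over all members.

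Among 26 adhesion and synaptogenic genes tested against panel A nuclei, 1 stood higher and 5 lower, Gpc5 with them, beside 6.06% and 2.14% of all genes. With TMM 8 stood lower, Gpc4, Cdh4 and Cdh10 added to the 5. Lsamp, a cell adhesion gene of the limbic system, was 8870 ± 344 CPM in members against 18674 ± 354 CPM, and Cdh20, a cadherin gene, 299.9 ± 44.2 CPM against 632 ± 25.3 CPM. Of 25 transmitter and peptide receptor genes tested, 2 stood higher than in panel A nuclei and 3 lower, and 1 and 4 with TMM. Gria1, an AMPA receptor subunit gene, was 974 ± 22.95 CPM in members, above the 414 ± 47.3 CPM of panel A nuclei and below the 1738 ± 175 CPM of panel B nuclei. Adrb1, the beta-1 adrenergic receptor gene, was 8.42 ± 1.87 CPM against 20.5 ± 1.71 and 20.97 ± 5.40 CPM, lower than both.

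Some genes set panel A and panel B nuclei apart and put members with one of them. Members were near panel A nuclei and away from panel B nuclei for Gfra1, the GDNF receptor gene (209 ± 34.7 CPM, against 200.4 ± 11.5 and 62.6 ± 10.4 CPM), Ephb1 (259 ± 18.4, 244 ± 21.8 and 106 ± 11.2 CPM), and Slc6a9, the glycine transporter 1 gene (13.8 ± 3.88, 15.004 ± 4.02 and 63.5 ± 7.45 CPM). They were near panel B nuclei for St6galnac5, a sialyltransferase gene (294 ± 30.3 CPM, against 941 ± 40.5 CPM in panel A and 285 ± 24.6 CPM in panel B nuclei), and Chrdl1, a BMP antagonist gene linked to synapse maturation (7.78 ± 1.63, 28.8 ± 3.36 and 6.75 ± 1.98 CPM). Dio2, the deiodinase that makes active thyroid hormone, was 6.56 ± 2.44 CPM in members, 40.8 ± 4.15 CPM in panel A nuclei and 12.04 ± 3.76 CPM in panel B nuclei, and members overlapped panel B nuclei. Thbs4 was 66.4, 50.3, 19.9, 20.7, 57.1 and 37.0 CPM in members of replicates 1 to 6, across the 27.8 to 53.8 CPM of panel A nuclei and above the 1.12 to 9.30 CPM of panel B nuclei.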

How the data were processed

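The data are UMI counts per gene and called barcode for 6 libraries, as deposited by the authors. Per the submitters' processing notes, reads were processed with Cell Ranger 3.1.0 and STAR, while the header of the deposited matrices names version 5.0.0. Neither the genome build nor the use of intronic reads is given in the sources used here. The labels' title speaks of nuclei and the protocol of cells. The annotation lists 32285 genes.

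Deposited UMI counts were summed per library and class and scaled to counts per 1e+06 UMIs of that sum (CPM). No count model was fitted, since the classes were drawn from the same counts. Differences are means over 6 libraries of log2(CPM + 1), with a pseudocount of 1. Genes needed 5 CPM in either class. Levels come from the 3′ ends of transcripts and are not compared between genes. Intervals and spreads cover these libraries only.

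Doublets were predicted per library from simulated sums of barcodes (30 components, 50 neighbours, 0.8% expected per 1000 barcodes) and were kept. Gated nuclei were clustered by the Leiden method (leidenalg 0.10.2) on 2000 genes, 30 components and 20 neighbours at resolution 1, without the 18 rule genes. TMM and median-ratio factors came from edgeR 4.0.16. The scripts were tested on simulated data.

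Genes were named by a rule, among genes at 20 CPM or more. It took the 12 farthest above both classes and the 10 farthest below both. For each class, of the genes within 0.5 of it on the log2 scale, it took the 4 farthest from the other class. Predicted, mitochondrial, ribosomal and sex-linked genes were left out. Genes from the lists, and genes named for clusters, were chosen after their values were seen. Members and lists were chosen with earlier results of these data known. The astrocyte-led restriction, the cilium family list and its filter on panel A levels were added after seeing the data. Alternatives changed the panel limit, margin and genes, the gate, depth, doublets, markers of other types, scaling, pseudocount, filter and each library in turn. Some genes are not reported here.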

Additional observations from a re-analysis of the deposited data

Results flagged for a closer look

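Of 139 values checked over the 6 libraries of members, 10 had 1 library far from the other 5 relative to the range of all 6. Chance alone gives this for about 1 in 20 values. Replicate 3 was highest for Ccdc192, at 82.1 CPM against 28.9 to 43.6 CPM in the others, and for Samd3, at 80.2 CPM against 5.92 to 31.8 CPM. Replicate 3 also had the largest share of members in the neuron-marked cluster 12, at 12.7%, and the part of that cluster in these values was not tested. It was lowest for Cdon, at 46.2 CPM against 63.2 to 70.0 CPM.

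Replicate 1 was highest for Hhip, a hedgehog-binding protein gene, at 34.0 CPM against 15.6 to 20.7 CPM. Replicate 2 was highest for Otx1, at 3.97 CPM against 0 to 1.48 CPM, and for the summed endothelial markers, at 113 CPM against 10.9 to 47.5 CPM. Replicate 4 was highest for St6galnac5, at 353 CPM against 269.6 to 293 CPM. Replicate 5 was highest for Il33, at 52.4 CPM against 23.2 to 31.4 CPM. Replicate 6 was highest for Heyl, at 5.81 CPM against 2.57 to 3.70 CPM, and for Igfbp2, at 5.08 CPM against 0 to 1.67 CPM.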

How the results depend on the processing

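The member share of gated astrocytes (11.2% of gated nuclei) became 12.6% with a panel limit of 2 UMIs, 8.75% with 5, 7.78% where panel C had to be at least 2 times each other sum, 10.5% without Gfap, 2.81% without Slc38a1, 9.27% after thinning to 3000 UMIs, 9.12% without nuclei holding 3 or more UMIs of another cell type's markers, and 11.96% within astrocyte-led clusters. Leaving out each library gave 11.05% to 11.4%. The genes apart from panel A nuclei (1005) became 1547 without Slc38a1 (838 higher and 709 lower, in place of 743 and 262), 633 with at least 8 UMIs of Slc1a2 and Slc1a3, 604 without nuclei holding other markers, 647 at 20 CPM or more and 629 with a pseudocount of 5. Those apart from panel B nuclei (1272) became 843, 804, 806 and 791 under the last 4 of these. Leaving out each library gave 992 to 1076 and 1292 to 1328. The share of members in astrocyte-led clusters was 74.9% at all 3 resolutions and 74.0% to 75.7% without each library.

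Of 4600 values of named genes under the alternatives, 129 had the opposite sign to the value as reported. Of these, 108 were values under 1 in size as reported and 21 were at least 1 (of 3240 such values), and the 21 are given here. Without Slc38a1 in the panel, the difference from panel A nuclei was -0.55 for Tnc and -0.16 for Rspo2, and from panel B nuclei -0.60 for Rspo2. Without nuclei holding other markers, it was -0.13 for Corin, -0.24 for Adgrd1, -0.56 for Ebf2, -0.87 for Postn and -0.12 for Samd3 from panel A nuclei, and -1.37 for Ebf2, -0.38 for Ccdc192, -0.77 for Postn, -0.34 for Samd3 and -0.023 for Clstn2 from panel B nuclei. Within astrocyte-led clusters it was -0.24 for Corin, -0.31 for Ebf2 and -0.35 for Postn from panel A nuclei, and -0.051 for Ebf3, -0.45 for Ebf2, -0.31 for Postn, -0.13 for Samd3 and -0.049 for Clstn2 from panel B nuclei. The cause was not tested. Every difference was taken within a library and is thus paired by library, and no test was made.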
